A study of Homo sapiens with 6 samples.

Results

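The oxysterol-binding protein (OSBP) family was described through 10 listed genes, OSBP, OSBPL1A, OSBPL2, OSBPL3, OSBPL5, OSBPL6, OSBPL8, OSBPL9, OSBPL10 and OSBPL11. They were found by matching their symbols to the Ensembl IDs of the count tables, which hold 60676 IDs, and all 10 were abundant enough to be among the 15577 genes tested. RNA was sequenced from HEK293A, a strongly attaching form of HEK293, an established line from human embryonic kidney. One group of 3 libraries came from cells given the DMSO vehicle, and the other group of 3 from cells given the coded compound VT01454 at 20 nM for 2 h. The series title places the experiment in work on phosphatidylinositol transfer proteins, phosphoinositides and the Hippo pathway, and the comparison asks which transcripts differ between compound and vehicle.

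Proteins of this family, also called OSBP-related proteins or ORPs, carry lipids between membranes that lie close together. Many are anchored on the endoplasmic reticulum (ER) through the VAP proteins and reach to the Golgi, endosomes or plasma membrane. Several bring cholesterol or phosphatidylserine outward in exchange for phosphatidylinositol 4-phosphate (PI4P), a phosphoinositide made by PI4 kinases on the target membrane and broken down by the phosphatase SAC1 in the ER. PI4P is made from phosphatidylinositol, the lipid that phosphatidylinositol transfer proteins carry.

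Libraries held 19126039 to 28880374 counts, so 1 count was worth 0.0351 to 0.0522 CPM (counts per 1000000 counts of the TMM-scaled library). The HEK293 markers NEFL and VIM stood at 647 to 710 and 272 to 325 CPM, but the kidney lineage markers PAX2 and LHX1 were at most 0.708 and 0.111 CPM. Of 5 leukocyte markers, 2 (PTPRC and CD3E) were at 0 in every library, and the summed level of the list was 0.406 to 1.04 CPM in vehicle and 0.858 to 1.12 CPM with the compound. Summed levels were 22.9 to 35.4 and 20.4 to 31.2 CPM for 6 fibroblast and endothelial markers, mostly COL1A1, and at most 0.572 CPM for 4 squamous epithelial markers. The neurofilament gene NEFM was near 0 in vehicle library 3 and compound library 1 (0.369 and 0.140 CPM) and at 3.74 to 6.58 CPM in the other 4, so family values are also given without those libraries. Vehicle libraries differed more from each other (chi-square per degree of freedom 7.76 to 19.6) than compound libraries did (2.02 to 2.77). Vehicle libraries 1 and 3 differed from the compound libraries by 7.53 to 8.5, and vehicle library 2 from every other library by 8.81 to 19.6.

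The promoters of 4 members are shown because they hold letters that match a search pattern for EGR or AP-1 factors. The genes of such factors were much higher in the same compound libraries. EGR1, a zinc finger factor, stood at 16.2, 24.5 and 14.1 CPM in vehicle and 188, 188 and 193.5 CPM with the compound, and FOS, an AP-1 subunit, at 2.5, 2.09 and 1.59 against 10.5, 8.72 and 10.1 CPM. Both were chosen after their values were seen (log2 fold change 3.39 ± 0.18 and 2.26 ± 0.17, edgeR adjusted p = 1.09e-04 and 9.55e-06). RefSeq promoter windows on GRCh38.p14, from 250 bases before a start to 50 after it, were found for all 10 members, 16 windows in all. The letters searched on both strands were GCGNGGGCG for EGR and TGANTCA for AP-1, which share no overlap in these windows. N stands for any base, so a match, here or among all promoter windows, need not be a site that the factor recognises. EGR letters occurred in 2 of the 16 windows and in 9.43% of all 35116 promoter windows, and AP-1 letters in 2 of 16 and in 7.71%. The sequences are written 5′ to 3′ on the strand of the gene, with the matched letters in capitals.
OSBPL2 promoter, chr20:62238271-62238570, plus strand: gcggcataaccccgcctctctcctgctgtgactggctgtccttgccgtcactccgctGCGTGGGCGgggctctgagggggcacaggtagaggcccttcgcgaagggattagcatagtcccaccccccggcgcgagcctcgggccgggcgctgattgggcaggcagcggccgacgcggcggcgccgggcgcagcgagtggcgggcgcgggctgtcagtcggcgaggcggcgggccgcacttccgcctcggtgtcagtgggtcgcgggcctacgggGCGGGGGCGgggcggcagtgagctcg
OSBPL5 promoter, chr11:3165261-3165560, minus strand: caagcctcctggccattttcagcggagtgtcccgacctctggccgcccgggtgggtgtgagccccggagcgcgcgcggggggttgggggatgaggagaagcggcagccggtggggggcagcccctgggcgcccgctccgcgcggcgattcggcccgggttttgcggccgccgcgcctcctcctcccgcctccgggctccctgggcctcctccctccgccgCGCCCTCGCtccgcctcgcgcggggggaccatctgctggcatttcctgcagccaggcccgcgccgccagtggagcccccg
OSBPL10 promoter, chr3:31981213-31981512, minus strand: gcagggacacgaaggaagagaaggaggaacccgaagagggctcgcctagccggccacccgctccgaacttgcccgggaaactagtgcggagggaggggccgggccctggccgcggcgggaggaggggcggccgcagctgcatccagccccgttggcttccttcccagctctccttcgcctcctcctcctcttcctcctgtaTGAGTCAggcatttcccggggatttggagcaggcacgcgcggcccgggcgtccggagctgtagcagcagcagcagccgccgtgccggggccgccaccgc
OSBPL8 promoter, chr12:76423236-76423535, minus strand: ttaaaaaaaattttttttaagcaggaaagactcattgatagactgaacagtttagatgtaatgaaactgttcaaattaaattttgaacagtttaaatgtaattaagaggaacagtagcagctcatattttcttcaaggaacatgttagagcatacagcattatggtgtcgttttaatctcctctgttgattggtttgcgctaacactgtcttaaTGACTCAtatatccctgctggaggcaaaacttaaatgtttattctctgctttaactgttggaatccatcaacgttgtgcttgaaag
In OSBPL2 the matches begin at bases 58 and 275 of the window, in OSBPL5 at base 221 as the reverse complement, and in OSBPL10 at base 202. The OSBPL8 match, at base 215, lies in the window of an internal start, and the window of its outer start holds neither motif. The printed windows of OSBPL2, OSBPL5 and OSBPL10 also belong to starts inside the gene spans that GENCODE gives. A match describes the letters only, and binding was not measured.

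None of the 10 family transcripts passed the test after 2 h with the compound. Of all tested genes 1.89% were called, 1.27% higher and 0.616% lower, by the quasi-likelihood test of edgeR at a Benjamini-Hochberg adjusted p below 0.05. OSBPL8 had the largest difference, 1.19-fold, and its adjusted p was 0.258. At an unadjusted p below 0.05 edgeR picked out 1 member, OSBPL8, against 14.4% of all tested genes (7.82% in the higher direction). DESeq2 and limma-voom called 0 members, and 1.34% and 1.78% of their tested genes. Members called were likewise 0 with DESeq2 size factors in edgeR (1.88% of genes called), library size alone (1.74%), a mean of at least 1 CPM (2.16%), the replicate number as a block (2.18%), thinned counts (1.94%), and adjusted p below 0.01 (0.802%) or 0.10 (2.99%). The members' log2 fold changes ran from −0.032 to 0.25 with a median of 0.083, beside a median of −0.0073 over all tested genes. Of the 10, 9 lay above 0, where 48.4% of all tested genes did; by library size alone, without TMM, 7 lay above 0. OSBP was the single member whose groups did not overlap, against 21.1% of all tested genes, 11.3% with the compound higher and 9.84% with it lower. In bulk RNA, fewer cells with a transcript and less of it per cell cannot be told apart.

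**Figure D1:**
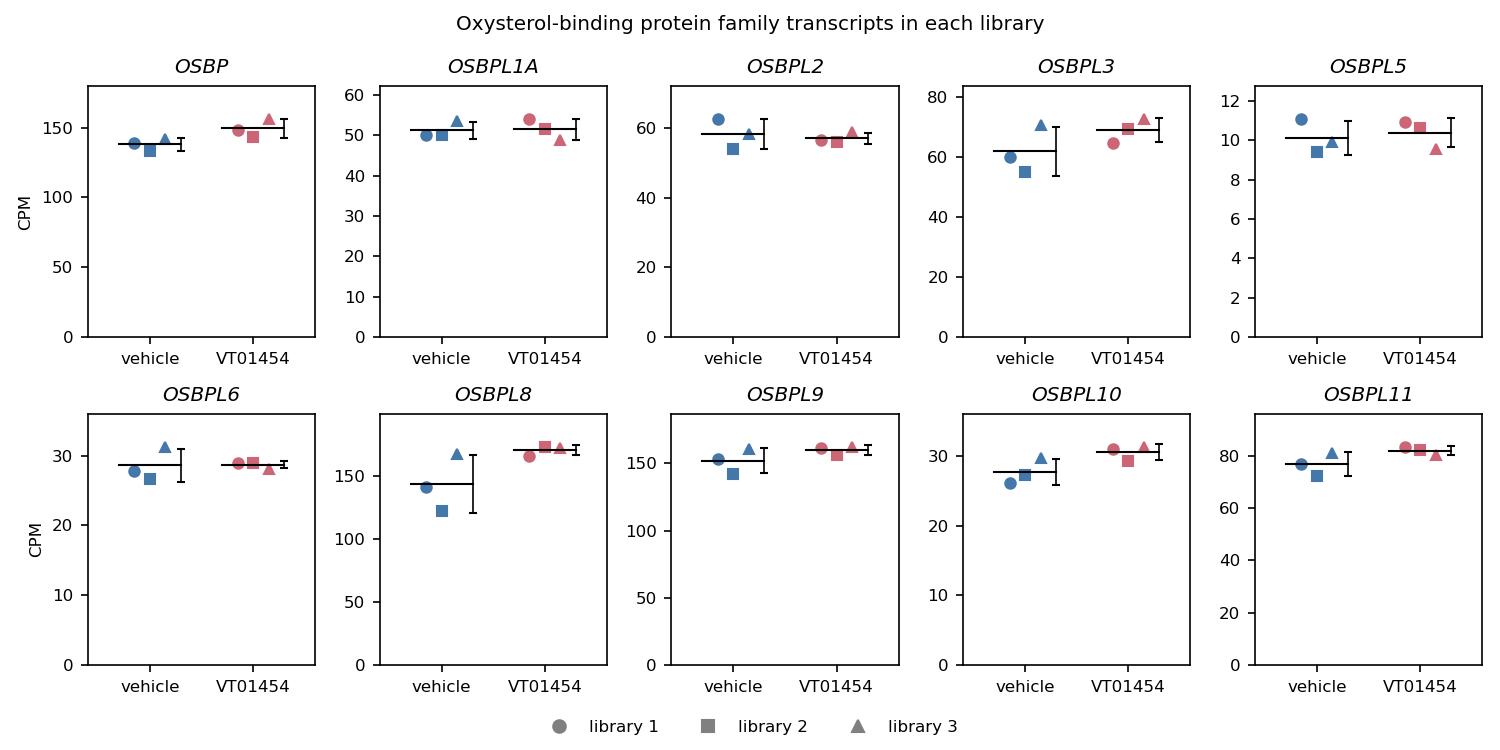
Normalised level of each of the 10 family members in every library, in CPM on axes that start at 0, with blue points for vehicle, red points for VT01454, a bar for the group mean and an error bar for the SD (n = 3). Groups overlap for every member except OSBP, and the vehicle points of OSBPL8 spread from 123 to 168 CPM.

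OSBP, the founding member, exchanges cholesterol for PI4P between the ER and the trans-Golgi network. Its gene lies on the minus strand of chromosome 11 (59574398 to 59616144, hg38). It stood at 139, 133 and 142 CPM in the vehicle libraries and at 148, 143 and 156 CPM in the compound libraries. Every compound library was above every vehicle library, by as little as the step from 142 to 143 CPM. Group means were 138 ± 4.62 and 149 ± 6.55 CPM (SD, n = 3 each). The log2 fold change of 0.11 ± 0.059 (SE) did not pass (edgeR adjusted p = 0.403), and its 95% interval ran from 0.991-fold to 1.18-fold. OSBP2, the close relative of OSBP that was not on the list of members, was lower in level at 11.2 ± 1.69 and 10.7 ± 0.362 CPM (SD, n = 3 each), with a log2 fold change of −0.068 ± 0.12 (edgeR adjusted p = 0.819).

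OSBPL1A and OSBPL2 form another branch. The long product of OSBPL1A, ORP1L, sits on late endosomes with the small GTPase RAB7 and senses cholesterol there, and a short product lacks that targeting part; gene counts do not separate these forms. OSBPL1A (chromosome 18, 24162044 to 24397880, minus strand) stood at 50.1, 49.99 and 53.6 CPM in vehicle and 54.1, 51.6 and 48.9 CPM with the compound. The highest and the lowest of the 6 values both came from compound libraries, and the log2 fold change was 0.0085 ± 0.067 (edgeR adjusted p = 0.965). OSBPL2, whose product ORP2 delivers cholesterol to the plasma membrane, lies on chromosome 20 (62231922 to 62296213, plus strand). It stood at 62.7, 54.1 and 58.4 CPM in vehicle and 56.6, 55.9 and 58.9 CPM with the compound. All compound values lay inside the vehicle range, with a log2 fold change of −0.032 ± 0.069 (edgeR adjusted p = 0.859) and a 95% interval from 0.881-fold to 1.09-fold.

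OSBPL3, OSBPL6 and OSBPL7 encode ORP3, which binds VAPA and the GTPase R-Ras and acts at the cell cortex, and its relatives ORP6 and ORP7. OSBPL3 (chromosome 7, 24796539 to 24981634, minus strand) had vehicle values of 60.1, 55.0 and 70.9 CPM and compound values of 64.9, 69.3 and 72.9 CPM. Vehicle library 3 lay among the compound libraries, above compound libraries 1 and 2. The log2 fold change of 0.15 ± 0.088 did not pass (edgeR adjusted p = 0.46), with a 95% interval from 0.973-fold to 1.27-fold. OSBPL6 (chromosome 2, 178194481 to 178402891, plus strand) held 27.8, 26.6 and 31.3 CPM in vehicle and 28.99, 29 and 28.1 CPM with the compound. Its 3 compound libraries all lay between vehicle libraries 1 and 3, and the log2 fold change was 0.0031 ± 0.079 (edgeR adjusted p = 0.989). OSBPL7, also outside the member list, had the lowest level of the 12 family genes at 6.62 ± 0.736 and 5.67 ± 0.525 CPM (SD, n = 3 each). It had the lowest log2 fold change of the family, −0.22 ± 0.13, with overlapping groups (edgeR adjusted p = 0.481).

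OSBPL5 and OSBPL8 encode ORP5 and ORP8, which are held in the ER by a membrane anchor of their own and exchange phosphatidylserine for PI4P at contacts with the plasma membrane. OSBPL8 (chromosome 12, 76351797 to 76559809, minus strand) stood at 141, 123 and 168 CPM in vehicle and 166, 174 and 173 CPM with the compound. The compound libraries lay close together at 171 ± 3.99 CPM, while vehicle was 144 ± 22.8 CPM (SD, n = 3 each), and vehicle library 3 exceeded compound library 1. The log2 fold change was 0.25 ± 0.093, with an unadjusted 95% interval from 1.03-fold to 1.36-fold. The edgeR adjusted p was 0.258, and 0.0214 before adjustment. OSBPL5 (chromosome 11, 3087116 to 3166739, minus strand), the lowest of the 10 members, stood at 11.1, 9.39 and 9.89 CPM in vehicle and 10.95, 10.6 and 9.57 CPM with the compound. The compound values lay inside the vehicle range, and the log2 fold change was 0.038 ± 0.11 (edgeR adjusted p = 0.896). OSBPL5 rested on 180 to 312 counts per library and OSBPL8 on 2349 to 4742, and the 95% interval of OSBPL5 ran from 0.875-fold to 1.2-fold.

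OSBPL9, OSBPL10 and OSBPL11 encode ORP9, ORP10 and ORP11, which work at ER contacts with the Golgi and endosomes; ORP9 pairs with ORP10 or ORP11. OSBPL9 (chromosome 1, 51577179 to 51798427, plus strand) stood at 153, 142 and 161 CPM in vehicle and 161, 156 and 163 CPM with the compound. Compound library 2 lay among the vehicle values, and the log2 fold change was 0.073 ± 0.06 (edgeR adjusted p = 0.615). OSBPL11 (chromosome 3, 125528858 to 125595090, minus strand) stood at 77.0, 72.1 and 81.2 CPM in vehicle and 83.5, 82.0 and 80.4 CPM with the compound. Here compound library 3 lay below vehicle library 3, and the log2 fold change was 0.093 ± 0.063 (edgeR adjusted p = 0.531). OSBPL10 (chromosome 3, 31657890 to 32077580, minus strand) stood at 26.1, 27.3 and 29.8 CPM in vehicle and 31.0, 29.2 and 31.4 CPM with the compound. Only compound library 2 reached into the vehicle range, and the log2 fold change was 0.14 ± 0.077 with a 95% interval from 0.981-fold to 1.23-fold (edgeR adjusted p = 0.439). In GENCODE release 29, 4.97% of the exonic bases of OSBPL9, 2.73% of those of OSBPL1A and 0.259% of those of OSBPL10 lie in exons of other genes, each of them non-coding or on the opposite strand. The other 7 members shared none, and the 5 OSBPL9 pseudogenes and the antisense gene OSBPL10-AS1 were at 0 counts in every library. How reads with several positions were counted is not known, so these zeros do not show that the pseudogenes were silent, and OSBPL9 may have lost reads it shares with them. In the members whose printed promoters hold EGR or AP-1 letters, the log2 fold changes were −0.032 for OSBPL2, 0.038 for OSBPL5, 0.14 for OSBPL10 and 0.25 for OSBPL8. The members without such letters ran from 0.0031 for OSBPL6 to 0.15 for OSBPL3, so the ranges overlapped. None of the members passed. Gene counts do not show which start was used, and a link between letters and change was not tested.

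**Figure D2:**
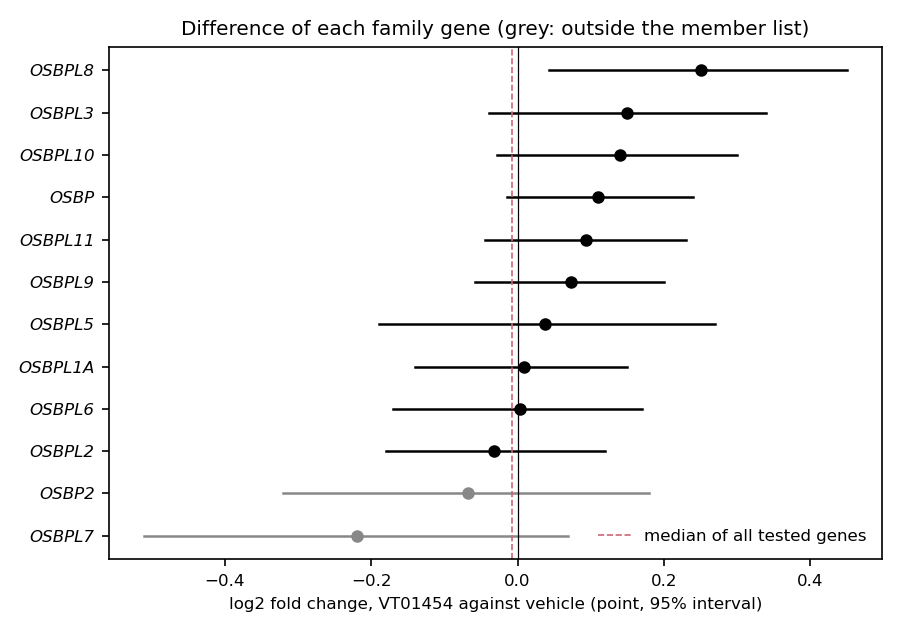
Log2 fold change of VT01454 against vehicle (x axis) for the 12 family genes, as a point with its unadjusted 95% interval, with the 10 members in black, OSBP2 and OSBPL7 in grey and the median of all tested genes as a dashed line at −0.0073. The interval of OSBPL8 lies above 0 and the intervals of the other 11 genes include 0.

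Compared per kilobase of exon, family transcripts covered a wide range of levels in both groups. OSBP was highest at 25.1 ± 0.841 CPM per kilobase in vehicle, followed by OSBPL11 at 18.3 ± 1.08, OSBPL9 at 16.0 ± 0.987 and OSBPL8 at 15.7 ± 2.48 (SD, n = 3 each). OSBPL3, OSBPL1A and OSBPL2 were intermediate at 7.65 ± 1.0, 6.38 ± 0.255 and 4.48 ± 0.329 CPM per kilobase in vehicle. OSBPL6 and OSBPL10 followed at 2.49 ± 0.212 and 2.32 ± 0.155, and OSBPL5 was the lowest member at 1.36 ± 0.117 CPM per kilobase. Neighbours in this order were separated in their vehicle values except for OSBPL9 with OSBPL8, OSBPL6 with OSBPL10, and OSBP2 with OSBPL5, whose ranges overlapped. With the compound the order was the same apart from exchanges within the first and second of these pairs. The order depended on the length used: per kilobase of the longest coding transcript, OSBPL9 came first at 45.4 CPM per kilobase and OSBP second at 27.2 in vehicle, while OSBPL5 stayed lowest of the members. In CPM, without correction for length, the highest members were OSBPL9, OSBPL8 and OSBP. Together they held 57.5% to 58.4% of the members' summed CPM in vehicle and 59.1% to 59.8% with the compound. A difference between these shares was not tested.

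**Figure D3:**
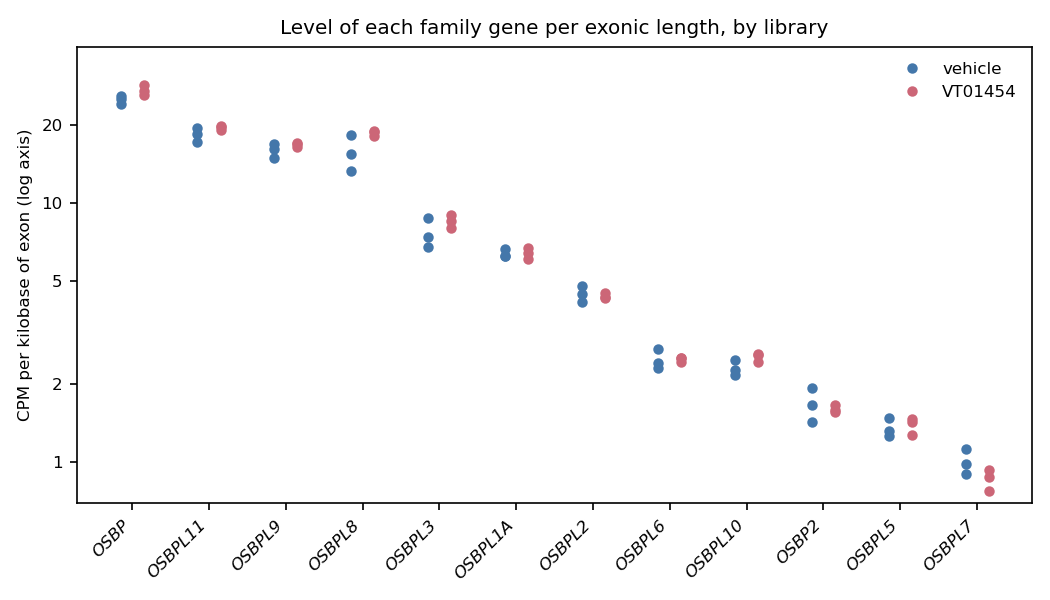
Level of each family gene in CPM per kilobase of exon on a log axis, with 1 point per library, blue for vehicle and red for VT01454, ordered by the vehicle mean. Vehicle means run from OSBPL7 at 1.01 to OSBP at 25.1 CPM per kilobase, and the groups overlap for every gene except OSBP.

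The vehicle libraries differed from each other in the same order for most members. Vehicle library 2 held the lowest vehicle value for 9 of 10 members and vehicle library 3 the highest for 8, against 38.2% and 38.1% of all tested genes. Summed over the members, the vehicle libraries held 748, 692 and 806 CPM and the compound libraries 806, 801 and 822 CPM. Vehicle library 3 was thus at the compound level and vehicle library 2 farthest below it. The SD was larger among vehicle than among compound libraries for 8 of 10 members, and for 73.9% of all tested genes.

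The calls of members depended on the library left out. Left out one at a time, vehicle libraries 1, 2 and 3 gave fits that called 0.584%, 2.6% and 11.4% of genes, and compound libraries 1, 2 and 3 gave 0.854%, 0.683% and 0.676%. Without vehicle library 3, OSBPL8 passed at a log2 fold change of 0.37 (edgeR adjusted p = 0.00217) and OSBPL3 at 0.26 (adjusted p = 0.0252) in the fit that called 11.4% of genes; the other 5 fits called 0 members. Without vehicle library 2, OSBPL8 stood at 0.14 (adjusted p = 0.3), OSBPL3 at 0.073 and the median of the 10 members at 0.039, with 6 above 0. Without compound library 1, 6 also lay above 0, and the median was 0.075. Leaving out both vehicle library 3 and compound library 1, the libraries low in NEFM, OSBPL8 passed at 0.39 (adjusted p = 0.0191) in a fit that called 3.9% of genes. That fit is not a separate check, because vehicle library 3, the highest vehicle library for OSBPL8, is left out in both. Without a filter on low counts OSBPL8 passed (0.26, adjusted p = 0.0113), where 2.29% of genes were called. Its log2 fold change was nearly that of the main fit (0.25), from the same counts. OSBP ranged from 0.083 to 0.15 over the libraries left out and never passed.

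**Figure D4:**
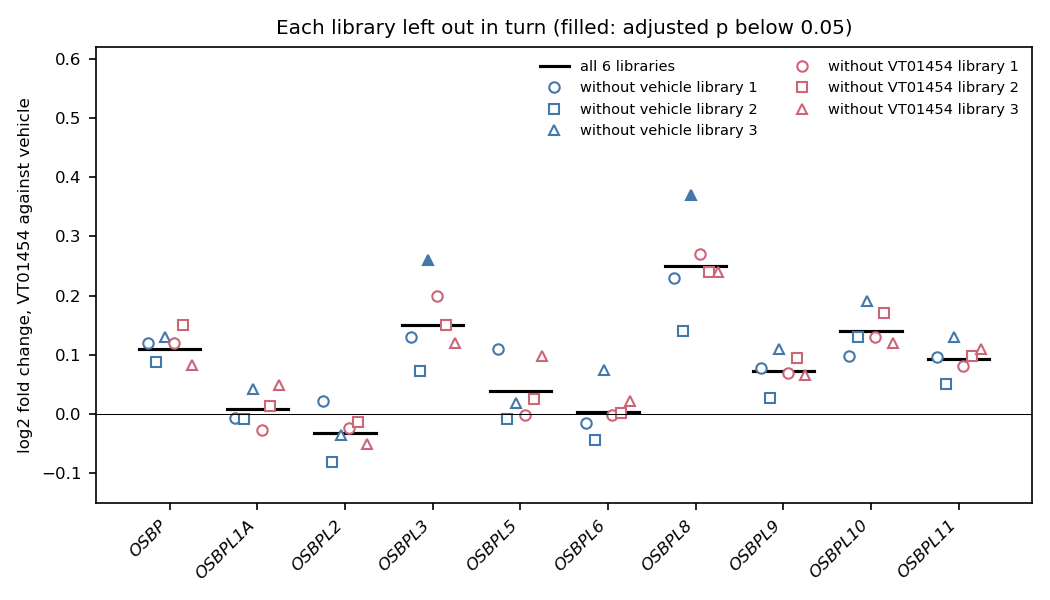
Log2 fold change of VT01454 against vehicle for each of the 10 members with all 6 libraries (black bar) and with each library left out in turn (symbols, filled where the edgeR adjusted p was below 0.05). Filled symbols appear for OSBPL3 and OSBPL8 when vehicle library 3 is left out, and the lowest value of both comes without vehicle library 2.

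Genes that work beside the family were taken from 4 further lists. Of 13 tested genes that supply or remove PI4P, 0 passed in edgeR (1.89% of all tested genes did) and 1 had an unadjusted p below 0.05 (14.4% of all), while DESeq2 and limma-voom also called 0. The list's median log2 fold change was 0.1, 12 of 13 lay above 0, where 48.4% of all tested genes did, and 6 had compound libraries all above vehicle, against 11.3% of all tested genes. HYCC1, a subunit of the plasma membrane PI4KA complex, stood at 94.2, 85.0 and 107 CPM in vehicle and 110.0, 109.9 and 117 CPM with the compound (log2 fold change 0.23 ± 0.079, edgeR adjusted p = 0.198). TTC7B, another subunit, and the kinase gene PI4KA had 0.14 ± 0.066 and 0.11 ± 0.059 (edgeR adjusted p = 0.368 and 0.403). HYCC1 passed without vehicle library 3 (adjusted p = 0.00442), as OSBPL8 did, in the fit that called 11.4% of genes. In that fit HYCC1, TTC7B and PI4KA stood at 0.32, 0.18 and 0.12. Without vehicle library 2 they stood at 0.16, 0.11 and 0.074, so the differences of these genes also depended on the vehicle library left out.

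The ER anchors VAPA and VAPB, which dock many ORPs, stood on opposite sides of 0. VAPB had 123, 121 and 134 CPM in vehicle and 116, 116 and 113 CPM with the compound, with no overlap between groups (9.84% of all tested genes had the compound lower in this way), but a log2 fold change of −0.13 ± 0.06 did not pass (edgeR adjusted p = 0.344). VAPA, at 175 ± 7.97 and 187 ± 3.45 CPM (SD, n = 3 each), had 0.091 ± 0.056 and MOSPD2, a related anchor, 0.16 ± 0.11 (edgeR adjusted p = 0.489 and 0.528). The VAPA groups did not overlap either, with the compound higher, as in 11.3% of all tested genes. Of the 4 tested anchors and partners, 0 passed in edgeR, DESeq2 or limma-voom and 1, VAPB, had an unadjusted edgeR p below 0.05 (14.4% of all tested genes); the list's median was 0.061. RILP, which binds RAB7 beside ORP1L, was at 0 in every library. Counting error alone leaves room for 3 counts, which is 0.105 to 0.157 CPM. The annotation release and strand setting of the counts are not known, so this zero does not show that RILP was silent.

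Of 18 tested genes for other lipid transfer proteins, 1 rose and 17 did not pass, where 1.27% of all tested genes were called higher. The gene that rose was CERT1, whose product carries ceramide from the ER to the Golgi and, like OSBP, docks through VAP proteins and a PI4P-binding domain. CERT1 stood at 60.6, 52.0 and 63.8 CPM in vehicle and 82.7, 83.0 and 80.2 CPM with the compound. All compound libraries were above all vehicle libraries, and the rise was 1.39-fold (log2 fold change 0.48 ± 0.076, edgeR adjusted p = 0.00496; 95% interval 1.24-fold to 1.56-fold). The call was lost without vehicle library 1 (adjusted p = 0.0638) or compound library 2 (0.052), with log2 fold changes of 0.50 and 0.47. Whether CERT1 differed from the OSBP family in its response was not tested. The list's median was 0.046, with 12 of 18 above 0 (48.4% of all tested genes). Groups did not overlap for 3 of the 18 with the compound higher and 1 with it lower, against 11.3% and 9.84% of all tested genes.

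Of 12 tested genes for oxysterol sensing and targets of the oxysterol receptor LXR, 0 passed in edgeR, and DESeq2 and limma-voom called 0. An unadjusted edgeR p below 0.05 was found for 2 of the 12, a share near the 14.4% of all tested genes. Groups did not overlap for 2 of the 12 with the compound higher and 0 with it lower, against 11.3% and 9.84% of all tested genes. MYLIP, an LXR target whose product degrades the LDL receptor, had 17.9, 16.1 and 18.7 CPM in vehicle and 22.9, 19.1 and 22.5 CPM with the compound (log2 fold change 0.29 ± 0.096, edgeR adjusted p = 0.182). INSIG1, the ER protein that retains SREBP when sterols or oxysterols are plentiful, had 83.1 ± 4.33 and 93.3 ± 1.29 CPM (SD, n = 3 each; 0.17 ± 0.061, edgeR adjusted p = 0.234). ABCG1, an LXR target and sterol transporter, rested on 7 to 19 counts per library, and its −0.85 ± 0.43 did not pass (edgeR adjusted p = 0.394). MYLIP passed without vehicle library 3 (adjusted p = 0.0473) and INSIG1 without vehicle library 2 (0.0397), in fits that called 11.4% and 2.6% of genes. The list's median was 0.032, with 8 of 12 above 0 (48.4% of all tested genes), and CH25H, which makes an oxysterol, was at 0 in every library. As for RILP, the zero of CH25H does not show that the gene was silent.

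**Figure D5:**
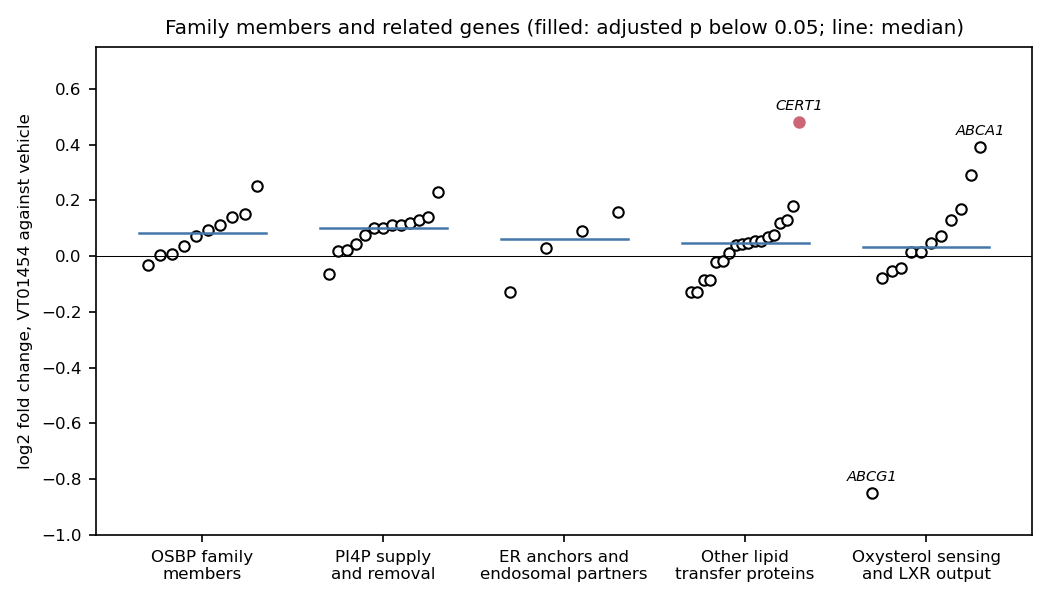
Log2 fold change of VT01454 against vehicle (y axis) for the tested genes of the OSBP family and of 4 related lists, 1 point per gene in rank order within its list, with a blue line at each list's median. CERT1, at 0.48, is the single filled point (adjusted p below 0.05), and ABCA1 (0.39, 7 to 46 counts per library) and ABCG1 are labelled as low-count genes far from 0, ABCA1 after its values were seen.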

How the data were processed

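The authors deposited 1 table of unnormalized gene counts for each library. Per the submitters' processing notes, the tools were HISAT2 2.2.1 and HTSeq 0.9.1, with hg38. No source used here gives the annotation release, strand setting or treatment of multi-mapping reads, so reads of overlapping genes may be split or lost. Symbols matched 60357 of 60676 IDs. Coordinates and exonic lengths come from GENCODE release 29 for hg38, which held 58503 of the IDs.

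Counts were tested with edgeR 4.0.16 in R 4.3.3 (filterByExpr, TMM, robust quasi-likelihood F-test, two-sided) over all genes, with Benjamini-Hochberg adjustment and calls at an adjusted p below 0.05. The SE was taken as the absolute log2 fold change over the root of F, and 95% intervals use the test's degrees of freedom without adjustment. On simulated counts of compound against vehicle over 15306 genes, 40%, 58%, 76% and 94% of genes seeded at 1.3-fold, 1.5-fold, 2-fold and 3-fold were recovered, with 12 false calls among 146. The simulation gave each gene the same dispersion in both groups, whereas the real vehicle libraries varied more than the compound libraries. It seeded no difference as small as the largest of a member (1.19-fold), so it gives no recovery rate for the members. Replicates are separate libraries, and no label says that they were separate cultures, and the p-values then reflect only how far these libraries vary, which may be technical variation.

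The members, related lists and tests were chosen with earlier results of these data known. All 10 members, OSBP2 and OSBPL7 are named. From each related list, members that passed are named, or otherwise up to 3 by smallest p. Alternatives were DESeq2 1.42.0, limma-voom (limma 3.58.1), other normalizations, filters and thresholds, thinning to the smallest library, the replicate number as a block, and each library left out. Leaving out vehicle library 3 with compound library 1, and the longest coding transcript as length, were added after seeing the data.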

Additional observations from a re-analysis of the deposited data

How the results depend on the processing

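The count of 0 members called held in all alternatives except 3: it was 1 without a count filter, 1 without vehicle library 3 and compound library 1, and 0 to 2 over the libraries left out one at a time. Over all genes the 294 calls became 713 without a count filter, 604 without that pair of libraries, 125 at an adjusted p below 0.01, 466 below 0.10 and 93 to 1806 over single libraries left out. PI4P genes called numbered 1 without a count filter, 1 without the pair of libraries and 0 to 1 over single libraries left out. Other lipid transfer proteins and oxysterol genes each had 0 to 1 over single libraries left out. The cause of these shifts was not tested. Small differences changed sign: by library size alone OSBPL1A stood at −0.015 and OSBPL6 at −0.021, and without the pair of libraries OSBPL5 at −0.021. Over single libraries left out the log2 fold changes ran from −0.027 to 0.049 for OSBPL1A, −0.082 to 0.022 for OSBPL2, −0.0089 to 0.11 for OSBPL5, −0.045 to 0.074 for OSBPL6 and −0.16 to 0.046 for OSBP2. With the replicate block, 339 genes and 0 members were called. Deviations of same-numbered libraries correlated at −0.07, 0.0276 and −0.0139. These values give no sign of pairing by number, but cannot show that the libraries were unpaired. Among the family genes depth limits OSBPL7 and OSBPL5 most, with as few as 114 and 180 counts in a library.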
